A study of Mus musculus with 19 samples.

Results

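CD44high and CD44low regulatory T cells (Tregs) from injured mice were compared by bulk RNA sequencing 7 days after burn injury. The members of this comparison were the libraries whose labels gave a burn, a lymph node Treg sort and a CD44 gate, which were 10 of the 19 libraries of the series. The injured CD44high group held 4 libraries, numbered 2, 3, 4 and 5. The injured CD44low group held 6 libraries, numbered 1, 2, 5, 1_2, 4_2 and 5_2. The other 9 libraries, from uninjured mice (4 CD44high and 5 CD44low, labelled Sham), served for comparison of the size of the change. All cells came from Foxp3DTR mice, a knock-in strain in which a fusion of the diphtheria toxin receptor and green fluorescent protein (GFP) is made under the control of Foxp3, and the study's methods give their age as 8 to 16 weeks, with a period of acclimation before use. Injured mice had received a scald over 20% of the body surface, by immersion in 90 °C water for 9 s under anesthesia, and the axillary, brachial and inguinal nodes that drain the injury were taken. The sham mice were handled alike, with room-temperature water in place of hot water. CD4+ Foxp3-GFP+ cells were sorted by CD44 into the CD44high and CD44low gates, with 50000 cells for each sample. The sources used here do not say what the second number in 1_2, 4_2 and 5_2 marks, or that each library came from a separate mouse, so p-values measure the spread between these libraries, which may be in part technical. Libraries 1 and 1_2, and 5 and 5_2, could share an animal, as could CD44high and CD44low libraries of the same number. The main results are therefore given against all 6 CD44low libraries and, where it matters, against the 3 without and the 3 with a second number.

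Tregs are CD4+ T cells that restrain other immune cells and depend on the transcription factor Foxp3. Those that have not recently met antigen are CD44low, carry the lymph node homing receptor Ccr7, and recirculate. Activated, or effector, Tregs are CD44high, carry costimulatory and inhibitory receptors, use chemokine receptors that lead to tissues, and can divide.

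Total counts were 7616633 to 9433610 in the CD44high libraries and 5582234 to 8011051 in the CD44low libraries. Of the 24982 genes in the table, 11464 had enough counts to be tested. By the quasi-likelihood test of edgeR, 4283 genes differed at an adjusted p under 0.05 (Benjamini-Hochberg) between CD44high and CD44low Tregs, which was 37.4% of the genes tested. Of these, 2307 were higher in CD44high cells (20.1%) and 1976 were lower (17.2%). The median log2 fold change over all genes tested was -0.0005. Large differences were more often gains than losses. At least a 2-fold difference was found for 1108 higher and 558 lower genes, and at least an 8-fold difference for 247 higher and 21 lower genes. With an unadjusted p under 1e-06 and a 2-fold change, 518 genes were higher (4.52%) and 170 were lower (1.48%). The study applied the same p and fold cut-offs with DESeq2, and its counts for injured mice were larger in both directions. Its text does not say if its p was adjusted. The 4 CD44high libraries lay entirely above the 6 CD44low libraries for 1787 genes (15.6% of those tested) and entirely below them for 1055 (9.2%). Of the 4283 genes, 3052 kept their call when each of the 10 libraries was left out in turn.

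**Figure D1:**
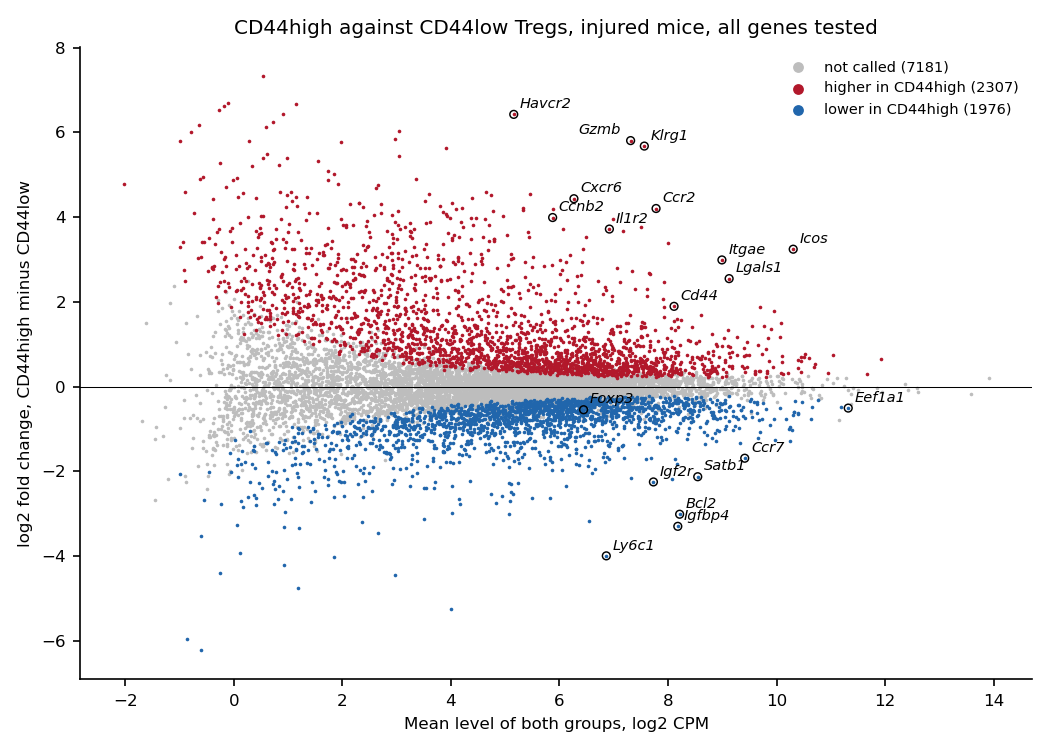
Log2 fold change of CD44high over CD44low Tregs from injured mice (vertical axis) against the mean level in log2 CPM, counts scaled to a common library size (horizontal axis), with 1 point for each of the 11464 genes tested. Coloured points passed an adjusted p under 0.05, and the upper side, with 247 genes at least 8-fold higher, reached farther than the lower side, with 21 genes at least 8-fold lower.

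The 5 marker genes of this comparison separated the groups in every library. The sort did not use them, but all 5 were among the 10 genes of smallest p in their direction. That list required groups without overlap, so their separation is a description and not an independent check. Levels are given in CPM, the count of a gene scaled to a common library size with TMM factors. Icos, a costimulatory receptor of activated T cells, was at 2561, 2177, 2098 and 2336 CPM in CD44high libraries 2, 3, 4 and 5, and at 201.2 to 354.7 CPM (median 224.2) in the CD44low libraries. Every CD44high library was above every CD44low library, and the log2 fold change was 3.24 ± 0.13 (SE, adjusted p 1.54e-14 by edgeR). Il1r2, the decoy receptor that binds interleukin-1 without signalling, was at 255.5, 205.4, 210.9 and 228.8 CPM against 10.71 to 24.7 CPM (median 15.88), a log2 fold change of 3.72 ± 0.16. Klrg1, an inhibitory lectin receptor of terminally differentiated T cells, was at 369.4, 355.2, 324.3 and 436.7 CPM against 3.138 to 10.12 CPM (median 7.127), a log2 fold change of 5.68 ± 0.26. Neither gene overlapped between the groups, and Klrg1 had the wider gap of the pair. In the other direction, Igf2r, a receptor that sorts lysosomal enzymes and clears insulin-like growth factor 2, was at 62.28, 90.43, 71.25 and 71.13 CPM against 294.7 to 399.4 CPM (median 347.1). Ccr7, the receptor for the chemokines that lead T cells into lymph nodes, was at 318.9, 345.8, 312.7 and 313.5 CPM against 963.9 to 1174 CPM (median 1021). Both were lower in all 4 CD44high libraries than in any CD44low library, with log2 fold changes of -2.25 ± 0.12 for Igf2r and -1.69 ± 0.09 for Ccr7. In bulk libraries such as these, fewer cells that express a gene and less RNA of it in each cell cannot be told apart.

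Cd44 transcripts followed the sort. Their level was 369, 496.7, 420.4 and 458.6 CPM in the CD44high libraries and 102.2 to 149.8 CPM (median 113.8) in the CD44low libraries, a log2 fold change of 1.89 ± 0.11, and because the gate selected on the CD44 protein this difference is a check of the labels. Foxp3 itself was present in both gates, at 47.67, 96.79, 74.48 and 63.93 CPM in the CD44high libraries and at 65.47 to 180.9 CPM (median 79.6) in the CD44low libraries. These ranges overlapped, and the log2 fold change of -0.55 ± 0.23 did not pass the threshold (adjusted p 0.0681 by edgeR), but it lay close to it. Under 9 of 19 alternatives, among them DESeq2 (adjusted p 0.0404), a block on the label number (0.041 by edgeR) and leaving out CD44high library 3 (0.0249 by edgeR), Foxp3 was called lower. The 2 CD44low libraries with the most Foxp3, at 180.9 and 139.8 CPM, were 4_2 and 5_2. Cd4 was at 777.3 to 931.3 CPM against 501.5 to 812.6 CPM, and was 1.23-fold higher in CD44high cells (adjusted p 0.0265 by edgeR), with overlapping libraries and no call without CD44high library 3 (adjusted p 0.0823), CD44high library 4 (0.0829) or CD44low library 4_2 (0.0592). Over all 19 alternatives Cd4 lost its call under 7, and its log2 fold change was 0.19 without 1_2, 4_2 and 5_2 (adjusted p 0.124 by edgeR).

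**Figure D2:**
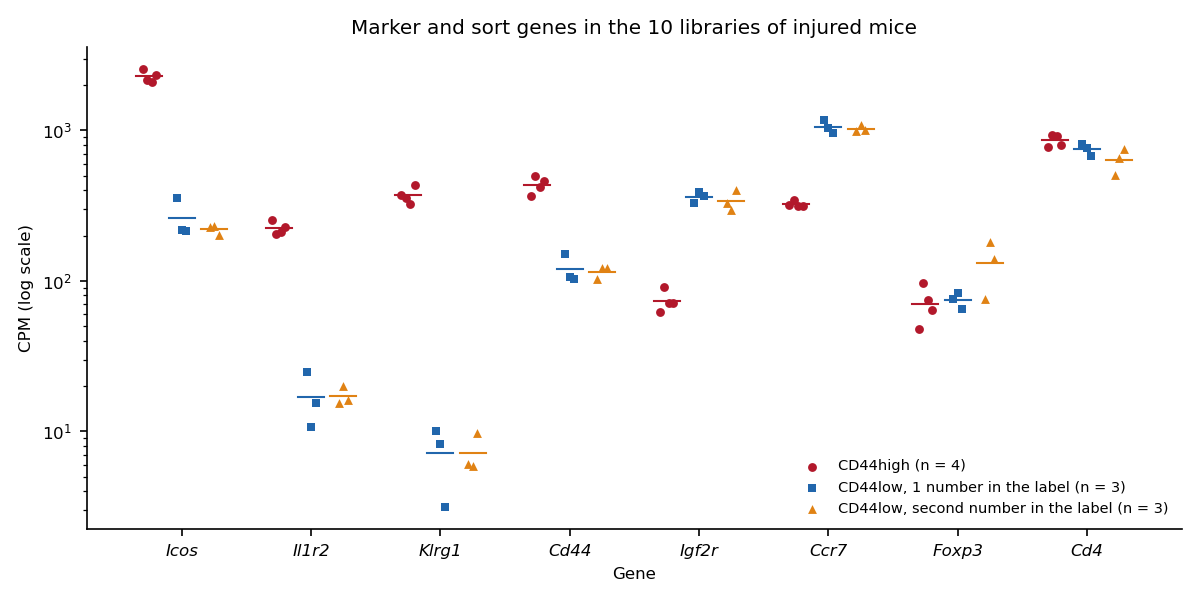
CPM on a log axis of the 5 marker genes and of the sort genes Cd44, Foxp3 and Cd4, with 1 point for each of the 4 CD44high and 6 CD44low libraries from injured mice and a bar at the mean of each set. Squares are CD44low libraries without and triangles those with a second number in the label. Icos, Il1r2, Klrg1 and Cd44 were higher and Igf2r and Ccr7 lower without overlap, while the points for Foxp3 and Cd4 overlapped.

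Genes of T cell and Treg identity did not move as 1 block. Of 16 tested, 5 were higher, 2 were lower and 9 did not pass the test, with a median log2 fold change of 0.07. Among all genes tested 20.1% were higher and 17.2% lower, shares to set beside the counts of this and the later lists. Ctla4, the inhibitory receptor that strips CD80 and CD86 from antigen-presenting cells, was higher at 1154 to 1530 CPM against 282.1 to 406 CPM (log2 fold change 1.89 ± 0.12). Capg, an actin-capping protein abundant in Tregs, was also higher (1.18 ± 0.12), and the other 3 were Ikzf2, Cd28 and Cd4. Ikzf2 lost its call under 9 of 19 alternatives, among them the omission of CD44high library 3 or 5 or CD44low library 1, 2, 5 or 4_2 (adjusted p 0.0553 to 0.349 over the 9 by edgeR). The 2 lower genes were Lrrc32, which holds latent TGF-beta at the Treg surface (log2 fold change -1.70 ± 0.17), and Il2ra, the high-affinity chain of the interleukin-2 receptor, at 269.9 to 549.8 CPM against 603.7 to 839.1 CPM (-0.82 ± 0.14).

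Genes of resting and recirculating T cells were lower in CD44high Tregs. Of 20 surface and trafficking genes, 17 were lower and 1 was higher, with a median log2 fold change of -0.96. The groups did not overlap for 16 of them, while of all genes tested 15.6% lay entirely higher and 9.2% entirely lower. Ly6c1, a surface antigen of the Ly6 family, was at 14.08, 13.66, 15.52 and 11.53 CPM in the CD44high libraries and at 152.7 to 276.8 CPM (median 227.8) in the CD44low libraries. No library crossed this gap, which was a log2 fold change of -4.00 ± 0.19 (adjusted p 1.04e-13 by edgeR). Igfbp4, which binds insulin-like growth factors, was at 39.84, 60.89, 40.21 and 73.23 CPM against 423.3 to 615.1 CPM. S1pr1, the receptor that lets lymphocytes leave nodes, had a log2 fold change of -0.74 ± 0.11. The gene that went the other way was Slamf6, a homophilic receptor of lymphocytes, at 459.5 to 557.2 CPM against 200.6 to 263.2 CPM.

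Among 20 transcription factors of resting T cells, 15 were lower and 1 was higher (median -0.79). Satb1, a chromatin organiser of developing and naive T cells, was at 141, 146.7, 119.1 and 151 CPM against 557.9 to 668.9 CPM, a log2 fold change of -2.13 ± 0.12. Bach2, a repressor that keeps T cells from effector differentiation, was at 11.02, 24.25, 12.61 and 14.8 CPM against 63.24 to 140 CPM. Tcf7 and Lef1, the paired factors of naive and memory T cells, were both lower without overlap, by -1.21 ± 0.08 and -1.10 ± 0.09, and Klf2, which drives S1pr1, by -1.32 ± 0.12. Myb was the higher one (1.04 ± 0.23). Outside the lists, Rcn1, a calcium-binding protein of the endoplasmic reticulum, and Evl, an actin regulator, were lower by -1.94 ± 0.10 and -1.82 ± 0.10, both without overlap. Gata1, an erythroid factor, was at 10.48 to 12.18 CPM against 50.12 to 61.88 CPM although none of the 11 red cell and platelet markers had enough counts to be tested.

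Transcription factors of effector Tregs were higher. Of 25 tested, 19 were higher, 1 was lower and 5 did not pass, with a median log2 fold change of 1.52. Rora, a nuclear receptor of tissue Tregs and innate lymphocytes, was at 264, 222.8, 229.3 and 224.3 CPM in the CD44high libraries and at 34.25 to 49.7 CPM (median 42.55) in the CD44low libraries. Prdm1, which encodes Blimp-1 and marks effector Tregs, was at 100.5, 173.1, 174.9 and 157.6 CPM against 10.79 to 25.78 CPM. Neither overlapped, and CD44high library 2 was the lowest for Prdm1 but the highest for Rora. Id2, an inhibitor of E proteins, and Ikzf3, which encodes Aiolos, had log2 fold changes of 2.35 ± 0.11 and 1.89 ± 0.12. The lower member was Stat3, a transducer of interleukin-6 and interleukin-10 signals (-0.38 ± 0.10).

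Mediators of suppression and repair were higher too, with 14 of 21 higher and 1 lower (median 1.89). Gzmb, the cytotoxic protease granzyme B, was at 313.6, 287.9, 281.4 and 366.1 CPM in CD44high Tregs and at 1.951 to 10.7 CPM (median 4.912) in CD44low Tregs. That was a log2 fold change of 5.81 ± 0.28, and the lowest CD44high library was above the highest CD44low library by a wide margin. Lgals1, which encodes the glycan-binding protein galectin-1, was at 990.6, 932.6, 894.6 and 1002 CPM against 128.4 to 221 CPM. Lgals3, which encodes galectin-3, and Fgl2, a secreted suppressive molecule of Tregs, had log2 fold changes of 4.18 ± 0.20 and 3.67 ± 0.18. The lower gene was Prf1, which encodes the pore-forming protein perforin, at 11.97 to 20.26 CPM against 23.62 to 44.65 CPM, so the protease and the pore that delivers it differed in opposite directions.

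Inhibitory and costimulatory receptors were less uniform. Among 24 coreceptors of the immunoglobulin superfamily and related inhibitory receptors, 14 were higher and 1 was lower (median 0.71). Havcr2, which encodes the inhibitory receptor Tim-3, was at 75.29, 64.81, 56.7 and 85.8 CPM against 0.1501 to 2.529 CPM (median 0.4289), the largest fold among the genes named here by size with at least 10 counts in the CD44low group (log2 fold change 6.43 ± 0.40). Its CD44low level rested on few counts, and library 1 held most of it. Cd200r1, an inhibitory receptor for CD200, was higher (2.01 ± 0.12) and Cd96, a receptor for CD155, was lower (-0.83 ± 0.10). In the tumor necrosis factor receptor family, 6 of 19 members and adaptors were higher and 2 were lower (median 0.21). Among all genes tested, 20.1% were higher and 17.2% were lower. Tnfrsf1b, the tumor necrosis factor receptor 2 that sustains Tregs, was at 1278 to 1705 CPM against 289.3 to 513.5 CPM. Tnfrsf4 (OX40) and Tnfrsf9 (4-1BB), costimulatory receptors of activated T cells, were higher by 1.35 ± 0.10 and 1.34 ± 0.11, and Tnfrsf13b by 0.92 ± 0.10. The lower members were the death receptor Fas (-0.58 ± 0.11) and the adaptor Traf4 (-0.75 ± 0.13).

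Most chemotactic receptors were higher in CD44high Tregs, while integrins and selectin genes changed in both directions. Of 21 chemokine and other chemotactic receptors tested, a list that also holds receptors for sphingosine-1-phosphate and oxysterols, 15 were higher, all at least 2-fold, and 3 were lower, with a median log2 fold change of 2.14. Ccr2, the receptor for the monocyte chemoattractant Ccl2, was at 358, 406.4, 422.2 and 482.5 CPM in CD44high Tregs and at 16.9 to 32.44 CPM (median 20.41) in CD44low Tregs. Cxcr6, the receptor for Cxcl16 on tissue-resident T cells, was at 146.2, 125.8, 152.8 and 164.5 CPM against 3.448 to 10.27 CPM (median 6.353). Ccr10, the receptor for the skin chemokine Ccl27, was at 94.41, 70.63, 92.49 and 77.68 CPM against 1.993 to 5.214 CPM (median 3.439). For all 3 receptors the groups were far apart, with log2 fold changes of 4.20 ± 0.17, 4.44 ± 0.19 and 4.54 ± 0.24. The lower members were Ccr7, the gut-homing receptor Ccr9 and S1pr1, which binds sphingosine-1-phosphate.

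Of 10 chemokines tested, 4 were higher (Ccl1, Cxcl2, Cxcl10 and Ccl5) and the other 6 did not pass the test. Their levels were low. Ccl1 and Cxcl2 overlapped between the groups, and Cxcl2 had no call without CD44high library 3 (adjusted p 0.0621) or against either set of CD44low libraries alone (0.0828 without and 0.0572 with a second number, by edgeR), nor had Ccl1 against those with a second number (0.103). Cxcl10, a ligand of Cxcr3 (itself higher by 1.51 ± 0.15), was at 24.68 CPM in CD44high library 4 and at 6.812 to 8.895 CPM in the other CD44high libraries, against 1.246 to 3.596 CPM in CD44low Tregs, and Ccl5, a chemoattractant of T cells, was at 8.897 to 16.9 CPM against 3.273 to 9.709 CPM, with overlap. Of 17 integrins, 9 were higher and 3 were lower. Itgae, which encodes the CD103 chain that holds T cells to epithelium through E-cadherin, was at 636.7, 1027, 1076 and 883.6 CPM against 86.88 to 139.8 CPM (median 112.7), a log2 fold change of 2.99 ± 0.14. Itgb1, the beta-1 chain, was at 1519 to 1763 CPM against 377.5 to 732.4 CPM. The alpha chains Itga4 (-1.73 ± 0.13), Itga6 (-1.34 ± 0.16) and Itga5 were lower, but Itga5 had no call without CD44high library 2, 4 or 5 or CD44low library 5 or 5_2 (adjusted p 0.0761 to 0.138 by edgeR). Selectins, their ligands and the enzymes that build the ligands were mixed as a list, with 5 of 14 higher and 3 lower (median -0.02). Fut7, the fucosyltransferase that completes sialyl Lewis X, had a log2 fold change of 3.64 ± 0.17, Gcnt1, which builds the core O-glycan branch, of 3.54 ± 0.22, and Chst2, a sulfotransferase, of 2.52 ± 0.19, and the other 2 higher members were Cd44 and St3gal1. The selectin Selp and the sulfotransferase Chst15 were among the lower members, Chst15 with no call without 1_2, 4_2 and 5_2 (adjusted p 0.122 by edgeR).

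Receptors of the interleukin-1 family were higher in 6 of 15 and lower in 3, beside 20.1% higher and 17.2% lower among all genes tested. Beside Il1r2, the alarmin receptors stood out by size. Il1rl1, which encodes the interleukin-33 receptor ST2 of tissue Tregs, was at 101.7, 184.3, 185.2 and 158.9 CPM in the CD44high libraries and at 9.653 to 22.48 CPM (median 17.17) in the CD44low libraries, with CD44high library 2 the lowest of its group and still above every CD44low library. Il18r1 and Il18rap, the chains of the interleukin-18 receptor, were higher by 1.46 ± 0.18 and 2.94 ± 0.27. The 3 lower members, Irak1 (-0.32 ± 0.10, with no call with CD44low libraries 1, 2 and 5 left out, adjusted p 0.126 by edgeR), Irak2 (-0.35 ± 0.12, with no call without CD44high library 4, adjusted p 0.0869 by edgeR, or with CD44low libraries 1, 2 and 5 left out, 0.125) and Irak3, are intracellular kinases or pseudokinases of the pathway and differed by less than 2-fold. For Irak3 the call was lost under 11 of 19 alternatives, also without CD44high library 3, 4 or 5 or CD44low library 1, 2 or 5 (adjusted p 0.0576 to 0.388 over the 11 by edgeR). The other cytokine receptors divided nearly evenly, with 9 of 31 higher and 11 lower. Il12rb1, a chain shared by the interleukin-12 and interleukin-23 receptors, Il9r, the interleukin-9 receptor, and Il17rb, the interleukin-25 receptor, were higher by 1.83 ± 0.14, 3.02 ± 0.26 and 3.12 ± 0.29. Il4ra, shared by the interleukin-4 and interleukin-13 receptors, was lower, at 204.5 to 309.8 CPM against 496.8 to 666.1 CPM. Downstream of these receptors, 10 of 22 STAT, JAK and SOCS genes were lower and the other 12 did not pass the test (median -0.28). Socs1, a feedback inhibitor of cytokine signals, was at 145.1, 140.2, 125.9 and 129.4 CPM against 251.2 to 384.1 CPM (median 297.1), and Socs3 (-0.79 ± 0.13), Stat6 (-0.65 ± 0.10) and Jak1 (-0.65 ± 0.12) were lower as well.

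Calcium-binding S100 proteins, annexins, lamins and vimentin, with other cytoskeletal genes of effector cells, were higher in 23 of 31, and the other 8 did not pass the test (median 0.93). S100a6 was at 444.2, 445.5, 453.3 and 520.3 CPM against 28.1 to 63.61 CPM (median 45.65), and S100a11 had a log2 fold change of 2.30 ± 0.14. Myo1f, a myosin of immune cells, and Anxa2, a membrane-binding annexin, were higher by 2.74 ± 0.14 and 2.47 ± 0.13.

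**Figure D3:**
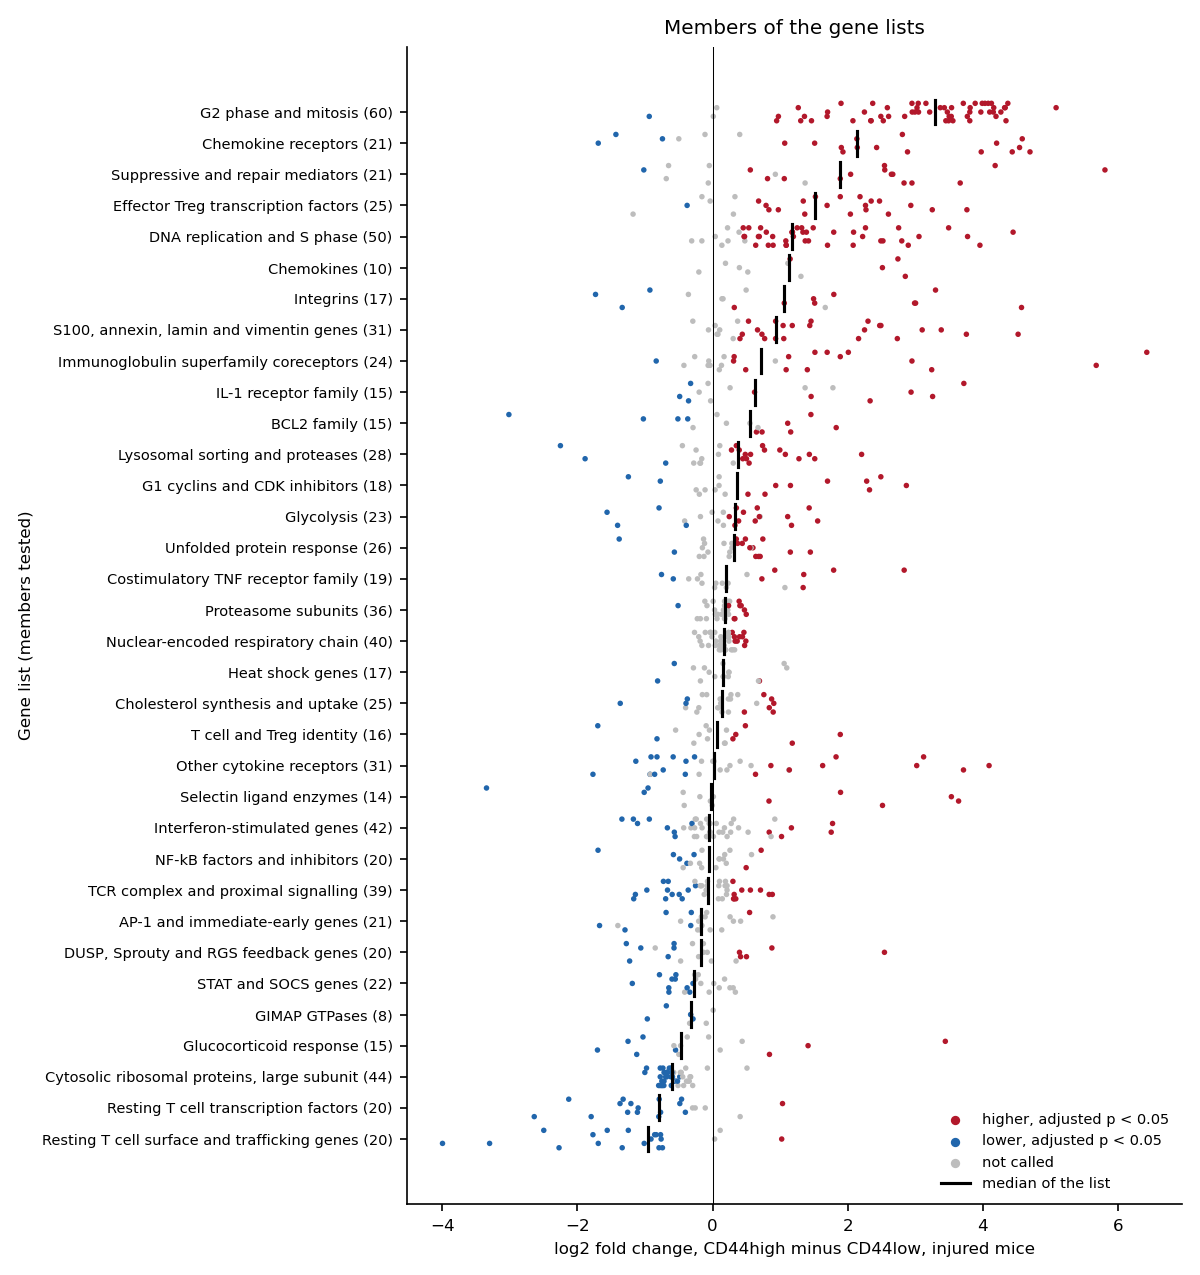
For each gene list, the log2 fold change of CD44high over CD44low Tregs from injured mice of every member tested (points, horizontal axis) and the list's median (bar), with coloured points for members called higher or lower. Lists of the G2 phase and mitosis, chemokine and other chemotactic receptors and suppressive mediators had medians of 3.29, 2.14 and 1.89, and those of resting T cell surface genes and transcription factors had medians of -0.96 and -0.79, while most lists of metabolism and stress lay near 0.

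Genes of cell division were higher in CD44high Tregs, and those of mitosis had the highest median of the lists examined. Of 60 genes of the G2 phase and mitosis, 57 were higher, 55 of them at least 2-fold, and 1 was lower, with a median log2 fold change of 3.29. Of 50 genes of DNA replication and the S phase, 42 were higher and the other 8 did not pass the test (median 1.18). Ccnb2, a B-type cyclin that drives entry into mitosis, was at 127.3, 91.6, 118.1 and 104.8 CPM against 4.422 to 10.17 CPM (median 7.012), a log2 fold change of 3.99 ± 0.19. Spc24, a kinetochore protein, was at 33.46, 23.4, 23.28 and 26.07 CPM against 0.7473 to 2.232 CPM (median 1.38). Rrm2, the subunit of ribonucleotide reductase that cells make when they copy DNA, was at 275, 184.7, 250.4 and 244.3 CPM against 10.84 to 21.57 CPM (median 13.99). Mcm6, a subunit of the replicative helicase, was at 697.5, 635, 631.3 and 580.3 CPM against 243.1 to 320.8 CPM (median 256). All 4 genes were without overlap. Mcm6 was well expressed in both gates and differed 2.38-fold, whereas Ccnb2 and Spc24 were at most 10.17 and 2.232 CPM in CD44low Tregs. The exception in the mitotic list was Smc4, a condensin subunit, at 395.4, 364.4, 360.7 and 350.9 CPM against 606.3 to 864.7 CPM. Among 18 cyclins, CDK inhibitors and other regulators of the G1 phase, 9 were higher and 2 were lower. Cdkn2c, the CDK inhibitor p18, and Ccne2, an E-type cyclin, were higher by 2.87 ± 0.16 and 2.49 ± 0.20, while Myc, the growth factor-induced regulator, was lower at 174.2 to 221.9 CPM against 432.7 to 521.8 CPM, and so was the CDK inhibitor Cdkn2d (-0.77 ± 0.13).

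Promoters of these genes are known to carry short elements that are read in different phases of the cycle, E2F sites in S phase genes and the CHR element (cell cycle genes homology region) with CCAAT boxes in mitotic genes. The sequence around the start of transcription of 4 members is shown because these elements can be read in it. The sequences are from the RefSeq promoter table on build GRCm38.p6, all 4 on the minus strand, printed 5′ to 3′ along the gene, and capitals mark the CHR letters TTTGAA, the CCAAT box (ATTGG when it lies on the opposite strand) and the E2F letters TTTGGCGC. The regions are chr9:70421535-70421654 for Ccnb2, chr15:99651637-99651696 for Racgap1, chr9:61946780-61946839 for Kif23 and chr1:128359706-128359825 for Mcm6, each within 250 bases before to 50 bases after the annotated start.
Ccnb2: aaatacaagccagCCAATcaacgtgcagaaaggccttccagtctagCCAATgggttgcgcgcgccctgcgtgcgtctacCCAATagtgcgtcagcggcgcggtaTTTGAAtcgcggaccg
Racgap1: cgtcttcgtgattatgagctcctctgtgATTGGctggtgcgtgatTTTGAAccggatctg
Kif23: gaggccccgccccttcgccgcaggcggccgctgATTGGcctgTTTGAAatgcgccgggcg
Mcm6: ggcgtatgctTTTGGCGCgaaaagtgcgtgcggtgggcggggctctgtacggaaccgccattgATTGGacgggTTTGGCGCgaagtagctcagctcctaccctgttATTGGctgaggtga

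Racgap1, a regulator of cytokinesis, was at 123.9, 127.3, 157.9 and 138.2 CPM in CD44high Tregs against 21.3 to 32.36 CPM (median 25.98), and Kif23, its kinesin partner, had a log2 fold change of 3.03 ± 0.17. Both showed 1 CCAAT box upstream of 1 CHR. Over all promoters with a match in the table (300 bases each, both strands searched, motifs counted separately and without overlap in the sequences shown), the CHR letters were in 74.5% of the 51 promoters of mitotic genes called higher, in 10% of the 40 promoters of S phase genes called higher, and in 12.2% of the 11603 promoters of all genes tested. E2F letters (TTTCCCGC or TTTGGCGC) were in 7.84%, 25% and 3.03% of the same promoters, and the CCAAT box was in 74.5%, 57.5% and 37.8%. The AP-1 letters TGANTCA were in none of the 51 or the 40 promoters and in 4.75% of those of all genes tested. These shares are descriptions of letters in a window. Of the genes at least 2-fold higher, whose 1046 promoters were searched, 17.4% held the CHR letters, against 9.25% of the 584 promoters of genes at least 2-fold lower.

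Genes of antigen receptor signalling differed in both directions by modest amounts. For comparison with the counts that follow, 20.1% of all genes tested were higher and 17.2% were lower. Of 39 genes of the T cell receptor complex and its proximal pathway, 10 were higher and 12 were lower, with every higher one under 2-fold. The Tec kinase Txk was lower (-1.17 ± 0.14), and the transcription factor Nfatc1 and the paracaspase Malt1 were higher (0.71 ± 0.12 and 0.84 ± 0.14). Of 20 genes of the DUSP, Sprouty and RGS families, which feed back on kinase and G protein signals, 5 were higher and 6 were lower. Rgs1, an inhibitor of chemokine receptor signals, was at 132.3 to 165.5 CPM against 284.3 to 415 CPM, Spry1 was lower by -1.28 ± 0.16, and Dusp14 was higher by 2.54 ± 0.46 at low counts. Of 20 NF-kB factors and inhibitors, 2 were higher (Nfkbid and Bcl3) and 5 were lower, with Map3k14, the NF-kB-inducing kinase, at -1.69 ± 0.23. The call of Bcl3 rested on CD44low libraries 1_2, 4_2 and 5_2, without which it was at 0.25 (adjusted p 0.121 by edgeR). Gna15, a G protein alpha subunit that couples receptors to phospholipase C, was at 110.5, 97.74, 100.6 and 101.8 CPM against 10.79 to 16.22 CPM (median 14.46), and Gpr83, a G protein-coupled receptor long known as a Treg gene, was at 124.3, 103.7, 76.21 and 84.49 CPM against 405 to 468.1 CPM (median 452.5). Both were among the 10 genes of smallest p in their direction, and neither overlapped between the groups.

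Survival genes changed places within the BCL2 family. Bcl2, its founding inhibitor of apoptosis, was at 55.9, 81.85, 57.56 and 66.55 CPM in CD44high Tregs and at 330.5 to 598.6 CPM (median 585) in CD44low Tregs, a log2 fold change of -3.01 ± 0.16. Bcl2l1, which encodes the inhibitor Bcl-xL, was higher at 156.5 to 167.9 CPM against 63.78 to 99.54 CPM. In all, 6 of 15 members were higher, among them the inhibitor Bcl2a1b (1.16 ± 0.14) and the killer Pmaip1 (1.46 ± 0.17), and 4 were lower, which were Bcl2, Mcl1, Bbc3 and the killer Bcl2l11 (-1.02 ± 0.19). Bbc3 lost its call under 10 of 19 alternatives, among them the omission of any 1 CD44high library or of CD44low library 1_2, 4_2 or 5_2 (adjusted p 0.055 to 0.116 by edgeR), and was at -0.01 without all 3 of these CD44low libraries. Bcl2a1b has near-identical copies, so its counts are uncertain. Of the 8 GIMAP GTPases of lymphocyte survival, 4 were lower (Gimap3, Gimap6, Gimap8 and Gimap9), with Gimap3 at 716.8 to 946.8 CPM against 1303 to 1878 CPM. Gimap8 and Gimap9 overlapped between the groups. Gimap8 had no call without CD44high library 2 (adjusted p 0.0794) or without 1_2, 4_2 and 5_2 (0.0765), and Gimap9 none under 10 of 19 alternatives, among them the omission of CD44high library 3, 4 or 5 or CD44low library 1_2 (0.056 to 0.143 by edgeR).

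Lists of metabolic and stress genes had smaller median changes than the list of mitotic genes. In glycolysis, 12 of 23 genes were higher and 4 were lower (median 0.33), with the enzymes Tpi1 and Pkm higher by 1.11 ± 0.12 and 0.69 ± 0.09, and the muscle-type enolase Eno3 and the kinase Pdk1, which keeps pyruvate out of mitochondria, lower by -1.56 ± 0.22 and -1.40 ± 0.14. Lysosomal genes were higher in 16 of 28 and lower in 3 (median 0.37). Lgmn, an asparaginyl protease, and Lamp2, a membrane protein of lysosomes, were higher by 2.21 ± 0.12 and 1.51 ± 0.13, and the lower members were Igf2r, Ctsw (-1.89 ± 0.11) and Lamp1. In the unfolded protein response, 12 of 26 were higher and 2 were lower, with Sdf2l1, a chaperone of the endoplasmic reticulum, at 1.15 ± 0.15 and the stress sensor Atf6 at 1.45 ± 0.22. Among all genes tested 20.1% were higher and 17.2% lower, and the remaining lists had shares of that order or smaller, except for a larger share of lower genes among the glucocorticoid-responsive ones. Respiratory chain genes had 9 of 40 higher and 31 that did not pass, proteasome subunits 8 of 36 higher and 1 lower (Psmb10, a subunit of the immunoproteasome), cholesterol genes 6 of 25 higher and 3 lower, heat shock genes 1 of 17 higher and 2 lower, and interferon-stimulated genes 5 of 42 higher and 8 lower. Of the interferon-stimulated genes, Gbp2 was lower (-0.94 ± 0.10) and Ifi27l2a was higher (1.17 ± 0.17). Of 15 glucocorticoid-responsive genes, Sgk1, Mt1 and Fkbp5 (no call with CD44low libraries 1, 2 and 5 left out, adjusted p 0.0875 by edgeR) were higher and 5 were lower, Pik3ip1 by -1.70 ± 0.12 and Tsc22d3, which encodes GILZ, by -1.25 ± 0.16.

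On a scale corrected for gene length (TPM, a level in which every library has the same total), the largest absolute gains were in abundant genes. Mean levels in CD44high and CD44low Tregs were 5945 and 2744 TPM for Ifi27l2a, 5181 and 3361 TPM for Cd52, a small surface glycoprotein, 3425 and 603 TPM for Lgals1, 3246 and 1321 TPM for Tnfrsf4, and 2162 and 237 TPM for Icos. The largest losses were 1899 against 3204 TPM for Rpl32, 2759 against 4015 TPM for the translation factor Eef1a1 (no call without CD44high library 2 or 4 or CD44low library 1_2 or 4_2, adjusted p 0.0598 to 0.0853 by edgeR), 529 against 1775 TPM for Ccr7, 1028 against 2093 TPM for Gimap3, and 643 against 1663 TPM for Klf2. The losses of Rpl32 and Eef1a1 rested on CD44low libraries 1_2, 4_2 and 5_2, without which the log2 fold changes were -0.25 (adjusted p 0.116) and -0.13 (adjusted p 0.58 by edgeR). At the other end of abundance, some of the widest folds belonged to genes almost absent from 1 gate. Npnt, an integrin ligand, was at 11.29 to 18.34 CPM in CD44high Tregs and had no count in 5 of the 6 CD44low libraries. Ltb4r1, the high-affinity leukotriene B4 receptor, was at 26.68 to 31.91 CPM against 0 to 1.379 CPM, and Sorcs2, Dapk1 and Ntn4 were at most 1.834 CPM in any CD44high library and at least 6.033 CPM in every CD44low library.

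The CD44low libraries with and without a second number were not interchangeable. Compared with each other in a model that gave them separate means, they differed in 400 of 11648 genes (3.43%), 290 higher and 110 lower in the libraries with a second number, and 107 of these at least 2-fold. That count rested on single libraries, with 108 genes without 4_2, 198 without 1, 258 without 2 and 634 without 1_2. The chi-square per gene between CD44low libraries of different sets was 22.5 (1 and 1_2) to 40.8 (5 and 1_2). Within a set it was 5.68 (1 and 2) to 22.1 (1_2 and 4_2), except for 41.3 between 1_2 and 5_2. In that model CD44high Tregs differed from the 3 libraries without a second number in 3250 genes (1943 higher and 1307 lower) and from the 3 with one in 4374 genes (2283 higher and 2091 lower). Both sets gave a call in the same direction for 2532 genes and in opposite directions for 7. The same CD44high libraries stood in both comparisons, so agreement in direction was partly built in. At an unadjusted p under 1e-06 and 2-fold, 356 genes were higher and 138 lower without the second-number libraries, and 413 and 215 with them alone. The immediate-early gene Fos showed the split plainly. Fos, a subunit of the AP-1 factor, was at 48.73, 32.4, 29.53 and 29.08 CPM in the CD44high libraries, at 13.54, 16.44 and 14.12 CPM in CD44low libraries 1, 2 and 5, and at 140.7, 138.4 and 232 CPM in 1_2, 4_2 and 5_2. CD44high Tregs thus lay between the sets, with a log2 fold change of 1.24 against the first and -2.29 against the second, and no call over all 6 (adjusted p 0.0648 by edgeR). Jun, its partner, was lower against both sets, by -0.82 and -2.20. Over 21 immediate-early genes the medians against the sets were 0.11 and -0.32, with 1 higher and 5 lower against all 6 libraries. The lower ones were Klf6, Jun, Zfp36l2, Ier2 and Cd69, of which Ier2 lost its call without CD44high library 3, 4 or 5 or CD44low library 1_2 (adjusted p 0.0593 to 0.116 by edgeR) and Cd69 without CD44high library 3, 4 or 5 or CD44low library 1, 2 or 5 (0.0603 to 0.128). The higher one, Egr2, lost its call without any 1 of CD44high libraries 2, 3 and 4 or CD44low libraries 1_2, 4_2 and 5_2 (adjusted p 0.0743 to 0.106 by edgeR), and was at 0.15 without all 3 of these CD44low libraries (0.545).

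Ribosomal protein genes followed the same split. Of 44 proteins of the large cytosolic subunit, 28 were lower in CD44high Tregs and the other 16 did not pass the test, with a median of -0.61, but the median was -0.12 against the CD44low libraries without a second number and -0.93 against those with one. Of the 44, 3 had no overlap between the groups, while of all genes tested 15.6% lay entirely higher and 9.2% entirely lower in CD44high Tregs. Rpl32 was at 489.7 to 645.7 CPM in CD44high Tregs, at 732.7, 712.5 and 563.1 CPM in CD44low libraries 1, 2 and 5 and at 1154, 1421 and 973.2 CPM in 1_2, 4_2 and 5_2, and Rpl13, with copies elsewhere in the genome that make its counts uncertain, was at 371.8 to 459.4 CPM against 563.8 to 1133 CPM. Pabpc1, which binds the poly(A) tail, went from -0.03 to -1.26 between the sets, and Rbm3, a cold-inducible RNA-binding protein, from 0.95 to -0.32. Going the other way, Lcp1, an actin-bundling protein, went from 0.40 to 0.94, and the ubiquitin ligase gene Rnf145 and the collagen-modifying Plod1 changed sign, from -0.57 to 0.36 and from -0.48 to 0.83. Foxp3 was at -0.08 against the libraries without and -0.90 against those with a second number. Between the sets themselves, Foxp3 did not pass the threshold (adjusted p 0.0582 by edgeR). Glucocorticoid-responsive genes had medians of -0.02 and -0.55. Markers of macrophages and dendritic cells moved with the sets as well. Summed macrophage and dendritic cell markers were at 85.85, 100.4 and 209.7 CPM in libraries 1, 2 and 5 and at 48.27, 64.73 and 65.42 CPM in 1_2, 4_2 and 5_2, and the median log2 fold change of CD44high Tregs was 0.69 against the first set and 1.97 against the second. Summed neutrophil markers were at 7.142, 55.18 and 18.26 CPM and at 4.482, 3.776 and 7.353 CPM, with medians of 0.24 and 3.16 over the 4 tested. These neutrophil sums overlapped between the sets, with library 2 far above the rest. B cell sums overlapped too, at 163.7, 178.4 and 279.4 CPM and at 164.3, 143.7 and 148 CPM, as did those of CD8 T and NK cells. The part of other cells in the difference between the sets was not tested. By contrast, the medians against the sets were 3.18 and 3.39 for the G2 phase and mitosis, 2.12 and 2.17 for chemokine and other chemotactic receptors, -0.96 and -1.04 for resting surface genes, and among the marker genes the values were 3.13 and 3.38 for Icos, 5.69 and 5.66 for Klrg1, and -1.71 and -1.66 for Ccr7.

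**Figure D4:**
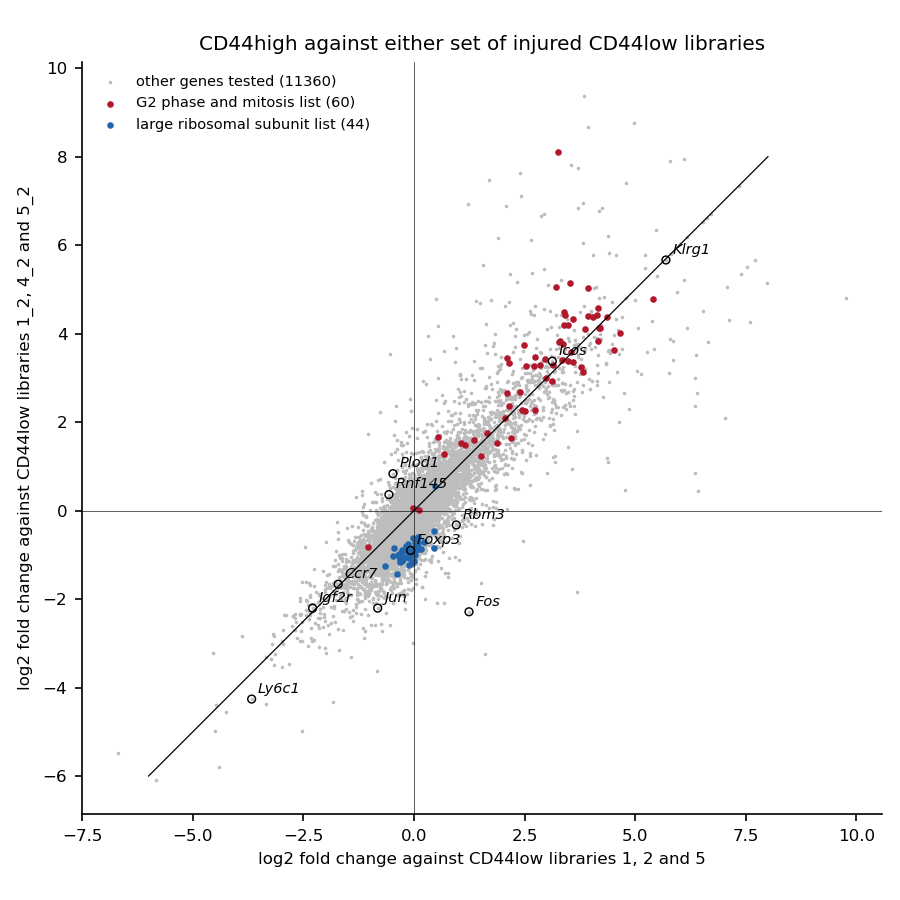
Log2 fold change of CD44high Tregs from injured mice over the CD44low libraries without a second number (1, 2 and 5) and over those with one (1_2, 4_2 and 5_2), on the horizontal and vertical axis, with 1 point for each gene and the line of equal values. Fos lay far below the line, at 1.24 and -2.29, and the large ribosomal subunit genes (blue) below it with medians of -0.12 and -0.93, while the mitotic genes (red) had medians of 3.18 and 3.39.

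Markers of other cells were measured because a sort can carry cells over. Of 13 B cell markers tested, 1 was higher (Cd22, an inhibitory lectin, log2 fold change 1.56 ± 0.27) and 12 did not pass the test, and the defining gene Cd79a was at 32.02 CPM in CD44high and at 32.32 CPM in CD44low Tregs. Summed over the list, B cell markers were at 217.4, 184, 218.5 and 361.5 CPM in CD44high libraries 2, 3, 4 and 5 and at 143.7 to 279.4 CPM in the CD44low libraries, with Cd79b the most abundant at 28.1% of the sum. CD44high library 5 and CD44low library 5 were the highest of their groups. Macrophage and dendritic cell markers were higher in 6 of 17 tested, while 11 did not pass (median 1.13), and their sum was 181.8, 141.6, 192.5 and 330.9 CPM against 48.27 to 209.7 CPM. Lyz2, lysozyme, made up 56.3% of that sum, at 69.04 to 199.4 CPM against 29.48 to 120.1 CPM with no call without CD44high library 5 (adjusted p 0.107 by edgeR) or without CD44low libraries 1_2, 4_2 and 5_2 (0.188), and Siglech, a marker of plasmacytoid dendritic cells, was at 9.301 to 13.02 CPM against 0.1724 to 1.284 CPM. Of the 21 macrophage and dendritic cell markers none was at 0, but Cd14, Clec9a, Batf3 and Fcgr1 had too few counts to be tested. The summed neutrophil markers were at 64.4 to 105.5 CPM against 3.776 to 55.18 CPM, of which the protease Mmp9 made up 67.4%, while Elane was at 0 and the abundant neutrophil genes S100a8 and S100a9 were at 3.56 and 3.96 CPM in CD44high Tregs and at 3.39 and 2.99 CPM in CD44low Tregs. Of 9 markers of CD8 T and NK cells tested, 3 were higher (Klrb1c, Nkg7 and Gzma, the last with no call without 1_2, 4_2 and 5_2, adjusted p 0.0729 by edgeR) and Prf1 was lower, and Cd8b1 was at 41.9 and 43.3 CPM. MHC class II genes, with Cd74 the most abundant, were higher in 1 and lower in 2 of 10 tested, stromal and endothelial markers were at 79.01 to 116.2 CPM against 137 to 231.5 CPM with Pecam1, which lymphocytes also carry, making up 98.0%, and the 11 red cell and platelet markers summed to at most 2.241 CPM in any library. Genes of follicular T cells were higher in 5 of 9 and lower in 1, with Pdcd1 (PD-1) at 232.6 to 293 CPM against 73.83 to 140.8 CPM and Tox2 at 82.6 to 137.7 CPM against 16.12 to 27.28 CPM. The part of these cells in the differences above was not tested, and without CD44high library 5 and CD44low library 5 the count of genes was 3446 in place of 4283.

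The same gates were compared in uninjured mice, to ask where the difference was tied to injury. There 5280 genes differed between CD44high and CD44low Tregs, and 3481 genes were called in the same direction in both conditions, which was 81.3% of the calls in injured and 65.9% of those in uninjured mice, and 7 were called in opposite directions. The 2 contrasts share no libraries. Among the 3481 genes, the change was smaller in injured mice for 2545 and larger for 936, with a median absolute log2 fold change of 0.88 in injured and 1.05 in uninjured mice. The difference between the contrasts themselves, tested as an interaction, passed an adjusted p under 0.05 for 74 genes (0.645% of those tested) by edgeR, but the count moved with the processing, to 43 without CD44high library 5, 110 without CD44high library 2, 217 by DESeq2, 314 without 1_2, 4_2 and 5_2, and 136 with only those 3 CD44low libraries. For 57 of them the gap had the same direction and was narrower in injured mice, for 2 it was wider, and for 15 the fitted changes had opposite signs.

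Genes with a narrower gap came from both sides. Ccr10 was 227.6 ± 34.6 CPM (SD, n = 4) in CD44high Tregs of uninjured mice and 83.8 ± 11.5 CPM (SD, n = 4) in those of injured mice, and its log2 fold change over CD44low Tregs was 7.75 ± 0.31 in uninjured and 4.54 ± 0.24 in injured mice (interaction -3.21 ± 0.43, adjusted p 0.000422 by edgeR). Satb1 was 47.2 ± 10.6 CPM in CD44high Tregs of uninjured and 139.5 ± 14.2 CPM in those of injured mice, and its gap below CD44low Tregs was -3.83 ± 0.14 in uninjured and -2.13 ± 0.12 in injured mice. Dennd2d, a regulator of Rab GTPases, followed the same pattern, at -1.87 and -0.61. In the cell division lists, 7 of the 60 mitotic genes passed the interaction, among them Ccnb2 with 6.16 ± 0.23 in uninjured and 3.99 ± 0.19 in injured mice and Racgap1 with 4.10 ± 0.18 and 2.37 ± 0.16, and the median of the list was 4.36 in uninjured and 3.29 in injured mice. For Ccnb2, CD44high Tregs were at 165.7 ± 9.0 CPM in uninjured and 110.5 ± 15.6 CPM in injured mice, and CD44low Tregs at 2.28 ± 0.78 CPM (SD, n = 5) and 6.92 ± 2.36 CPM (SD, n = 6), so the mean was lower at the upper end of the gap and higher at its lower end. Of the 31 S100, annexin and cytoskeletal genes 8 passed, with S100a6 at 4.88 in uninjured and 3.39 in injured mice.

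Some genes had little or no gap in uninjured mice. Gpr183, the receptor for oxysterols that positions lymphocytes in nodes, was at 100.2 ± 25.7 CPM in CD44high and 99.4 ± 9.58 CPM in CD44low Tregs of uninjured mice, and at 360.2 ± 80.7 CPM and 171.6 ± 30.3 CPM after injury. The log2 fold change was 0.01 in uninjured and 1.07 in injured mice (interaction 1.06 ± 0.23, adjusted p 0.0267 by edgeR), and the interaction was lost under 8 of 27 alternatives, among them leaving out CD44high library 2 (adjusted p 0.0574 by edgeR) or 5 (0.0715) of the injured mice. Prf1 went from 0.40 to -1.02, Etfbkmt, a mitochondrial methyltransferase, from -0.01 to -1.03, Klhl9, an adaptor of a ubiquitin ligase, from -0.30 to 0.66, and Ckb, the brain-type creatine kinase, from -0.29 to 0.72. These interactions did not hold throughout: the call was lost under 15 of 27 alternatives for Ckb (adjusted p 0.0523 to 0.0952 by edgeR), 2 for Prf1 (0.0525 and 0.0558), 1 for Etfbkmt (0.0561) and 1 for Klhl9 (0.053). The fitted changes of Prf1, Klhl9 and Ckb had opposite signs in uninjured and injured mice. Those of Bbc3 did as well, at 0.80 in uninjured and -0.51 in injured mice (interaction adjusted p 0.0224 by edgeR). The interaction of Bbc3 was lost without CD44high library 4 (0.0614) or 5 (0.0554) of the injured or 3 (0.0591) of the uninjured mice. The value in injured mice lost its call under 10 of 19 alternatives, and was -0.01 without 1_2, 4_2 and 5_2 (adjusted p 0.97 by edgeR).

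**Figure D5:**
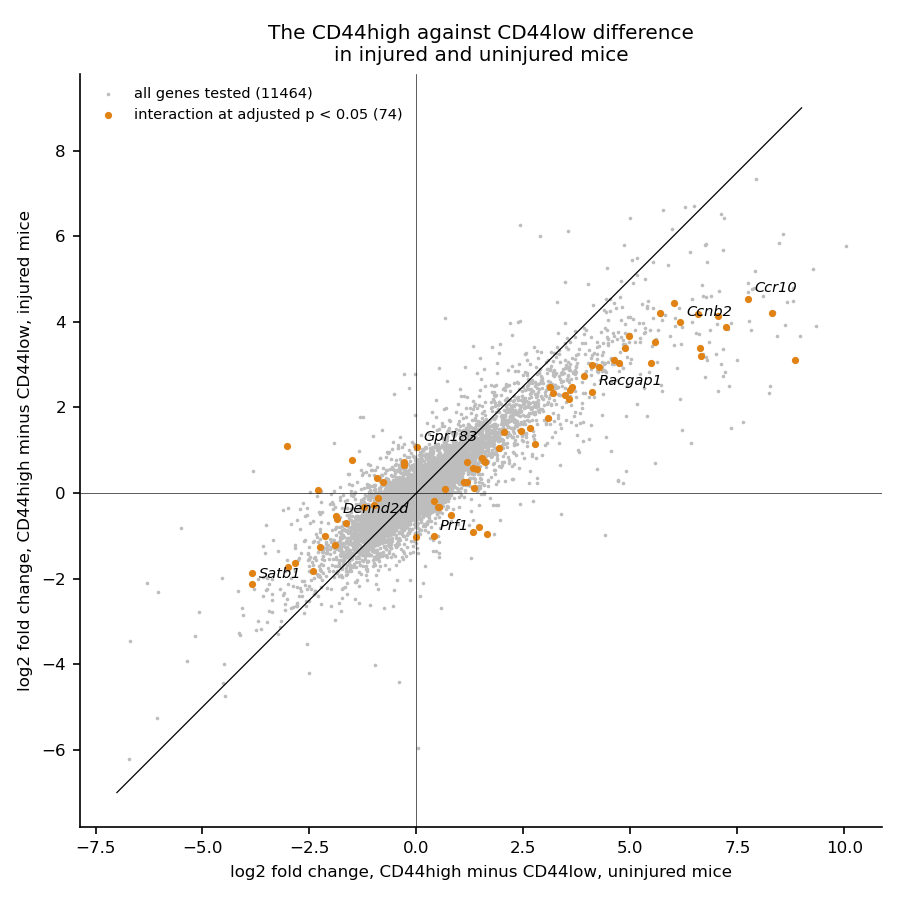
Log2 fold change of CD44high over CD44low Tregs in uninjured mice (horizontal axis) and in injured mice (vertical axis), with 1 point for each gene tested, the line of equal values, and orange points for the 74 genes whose change differed between conditions. Most coloured points, such as Ccr10 at 7.75 and 4.54, lay nearer to 0 in injured mice, and Gpr183, at 0.01 and 1.07, lay on the other side of the line.

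The number of such genes depended on which CD44low libraries stood for injured mice. Without 1_2, 4_2 and 5_2 it was 314 (217 narrower, 13 wider and 84 of opposite sign), and with only those 3 it was 136 (77, 14 and 45). Of the 74 genes, 72 were called in the same way without these libraries, 60 with only them and 59 in both, and all 74 kept the sign in both. Because the 74 were chosen in the fit of all libraries, and both refits share the CD44high and uninjured libraries, the kept signs do not measure stability. Leaving out CD44high library 5 of the injured mice left 43 genes.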

How the data were processed

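RNA from 50000 sorted cells for each sample was amplified to cDNA by the authors with SMART-Seq v4, a method that does not mark strand, and sequenced. Per the submitters' processing notes, reads were handled with bcl2fastq 2.18 and STAR 2.5, and both the mm9 and the mm10 builds are named, so which one the counts rest on is not settled here. The deposited values are raw counts of reads for each gene, with no normalisation by the authors. The table's 19 columns matched the labels, and 0 columns belonged to no sample. Of 24982 gene names, 24463 matched GENCODE vM21, 364 RefSeq and 60 RefSeq synonyms, 26 had been turned into calendar dates and 69 had no match.

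Counts were tested with edgeR 4.0.16 (limma 3.58.1, R 4.3.3) on all 19 libraries, with 1 mean for each of 4 groups, TMM factors, filterByExpr with a minimum count of 10, the quasi-likelihood test, and Benjamini-Hochberg adjustment over all genes tested. All tests are two-sided. Standard errors are the absolute log2 fold change divided by the root of F. A model of 5 groups divided the injured CD44low libraries by the second number in the label, and kept 11648 genes. CPM used TMM factors, and TPM used summed exon lengths of GENCODE vM21. Scripts were tested on simulated data, and alternatives were run with DESeq2 1.42.0, other size factors, no filter, other thresholds, other sets of libraries, and each library left out. Leaving out CD44high library 5 and CD44low library 5 together was chosen after seeing the data, because they had the highest summed B cell and macrophage markers. Promoters came from the RefSeq table (250 bases before to 50 after the start) and were matched by symbol for 9123 of 11464 genes tested, 49 of 57 mitotic and 34 of 42 S phase genes called higher.

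The gene lists and the groups compared were chosen with earlier results of these data known, so a list's counts describe it and are not independent evidence. Genes were named by rule. They were the 5 markers and 3 sort genes. The 10 genes of smallest p in each direction (at least 2-fold, no overlap, at least 10 CPM) were also named. So were the 5 of largest fold and of largest TPM difference in each direction. Each list gave up to 4 called members of smallest p and 2 that went against the majority. The most abundant markers of other cells were named too. The interaction gave 5 genes with a narrower and 5 with a wider gap after injury, by size whatever the sign. The CD44low sets gave 3 in each direction. Genes that complete a count of 5 or fewer, define another cell type or bind a named ligand (Ikzf2, Cd28, Cxcr3, Ccr9, Itga5, St3gal1, Chst15, Irak3, Cd69, Mcl1, Bbc3, Lamp1, Fkbp5, Cd79a, S100a9, Elane, Cd14, Clec9a, Batf3 and Fcgr1) were chosen after their values were seen. Some members of the lists are not reported here.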

Additional observations from a re-analysis of the deposited data

Results flagged for a closer look

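Single libraries that stood far from the rest of their group, by the distance to the nearest other library as a share of the group's range, were looked for in 178 tested genes that the report names, in the summed markers of other cells and in the total counts. Of 374 groups of values searched, 26 held such a library, and chance alone, at about 1 in 20 groups, gives 18.7. In the CD44high group, library 2 was high for Rora (264 CPM, others 222.8 to 229.3), Tox2 (137.7, others 82.6 to 90.44), Psmb10 (234.6, others 185.7 to 194), Fos (48.73, others 29.08 to 32.4) and Cd69 (290.8, others 234.5 to 238.5) and low for Itga4 (19.12, others 28.3 to 29.12). Library 4 was high for Cxcl10 (24.68, others 6.812 to 8.895) and Pdk1 (98.52, others 69.45 to 74.14). Library 5 was high for S100a6 (520.3, others 444.2 to 453.3), Pmaip1 (42.57, others 26.82 to 28.91), Cd28 (519.1, others 488.7 to 493.7) and Cxcl16 (3.406, others 0.5311 to 0.7545) and low for Ctsw (32.49, others 41.28 to 42.36).

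In the CD44low group, library 1 was high for the activation genes Icos (354.7 CPM, others 201.2 to 232.5) and Havcr2 (2.529, others 0.1501 to 0.8558). Library 5 was high for the summed B cell markers (279.4 CPM, others 143.7 to 178.4), for Cd22 among them (43.65, others 13.27 to 20.56), for the summed macrophage and dendritic cell markers (209.7, others 48.27 to 100.4), and for Cxcl16 (3.709, others 0.3448 to 1.259). Library 2 was high for the summed neutrophil markers (55.18, others 3.776 to 18.26) and for S100a8 (16.32, others 0 to 1.854) and S100a9 (12.58, others 0 to 3.138) among them. Library 1_2 was high for Cdkn2d (167, others 109.7 to 130.3) and low for Tnfrsf1b (289.3, others 432.8 to 513.5), library 4_2 was low for Ccne2 (3.236, others 6.228 to 7.886), and library 5_2 was the only one with counts for Npnt (1.501, others 0).

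For 26 genes named in the report, the change between the gates differed between injured and uninjured mice in the interaction test. The difference, injured minus uninjured log2 fold change, was negative for the tissue-homing and effector genes Ccr10 (-3.21), Lgals3 (-2.40), Ccl5 (-1.62), Cxcr6 (-1.59), S100a6 (-1.49), Ccr2 (-1.48), Fgl2 (-1.29), Cxcr3 (-1.13), Myo1f (-1.18), Anxa2 (-1.15), Id2 (-0.84) and Rora (-0.64), and for the mitotic genes Ccnb2 (-2.17) and Racgap1 (-1.73), all of which were higher in CD44high Tregs in both conditions. It was positive for Satb1 (1.71), Itga4 (1.27), Dennd2d (1.25), Gimap8 (0.71), Tcf7 (0.70) and Evl (0.60), which were lower in CD44high Tregs in both conditions. In each of these 20 genes the gap was therefore narrower in injured mice. The other 6 were Prf1 (-1.42), Gpr183 (1.06), Etfbkmt (-1.03), Ckb (1.01) and Klhl9 (0.95), 5 genes whose gap in injured mice exceeded that in uninjured mice, and Bbc3 (-1.32), which was higher in CD44high Tregs of uninjured and lower in those of injured mice. The fitted changes of Prf1, Ckb and Klhl9 also had opposite signs in uninjured and injured mice. The lower value of Bbc3 in injured mice lost its call under 10 of 19 alternatives. Without 1_2, 4_2 and 5_2 the value of Bbc3 was -0.01 (adjusted p 0.97 by edgeR). Of the 26 differences, 15 kept the call under every alternative and 11 missed the threshold under at least 1, namely Evl (20 of 27 alternatives), Rora (17), Ckb (15), Gpr183 (8), Ccl5 (4), Bbc3 (3), Gimap8 (2), Prf1 (2), Etfbkmt (1), Fgl2 (1) and Klhl9 (1), with adjusted p up to 0.125 by edgeR (Evl).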

How the results depend on the processing

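Of the 178 tested genes that the report names, 167 were called and 144 of these were called in the same direction under every alternative. The other 23 missed the threshold under at least 1, and were Bbc3, Bcl3, Ccl1, Cd28, Cd4, Cd69, Chst15, Cxcl2, Eef1a1, Egr2, Fkbp5, Gimap8, Gimap9, Gzma, Ier2, Ikzf2, Irak1, Irak2, Irak3, Itga5, Lyz2, Pabpc1 and Rpl32. Of the 11 genes without a call, Foxp3 was called under 9 of 19 alternatives (adjusted p 0.00327 to 0.0459), Fos under 7, Rbm3 and Rnf145 under 2 each and Plod1 under 1, with 1 call of Fos, Rbm3 and Rnf145 each against the sign over all libraries. With each library left out, the count of 4283 genes ranged from 3597 to 4410. The count of 688 genes (p under 1e-06 and 2-fold) ranged from 571 to 675. The 74 interaction genes ranged from 43 (without CD44high library 5) to 110 (without CD44high library 2). The 400 genes that differed between the CD44low sets ranged from 108 (without 4_2) to 634 (without 1_2), with 198 without library 1 and 258 without library 2. The 2842 genes without overlap became 2948 to 3386, but this count cannot fall when a library is left out, so its range is no test. Injured libraries alone gave 3737 and 494 genes, and without CD44high library 5 and CD44low library 5, 3446, 527 and 50 (interaction).

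DESeq2 gave 4557 and 955 genes, 217 interaction genes, and 651 genes between the CD44low sets. An added 2-fold threshold left 1666 of the 4283, and an adjusted p under 0.01 in place of 0.05 gave 2907 genes and 24 interaction genes. Genes without overlap numbered 4352 without 1_2, 4_2 and 5_2, a count that could not fall. Without these libraries there were 314 interaction genes, and with only those 3 there were 136 interaction genes. Signs turned for Fos (1.24) and Plod1 (-0.48) without 1_2, 4_2 and 5_2, for Rbm3 (-0.35) and Rnf145 (0.34) with only those 3, and for Plod1, a gene near 0, without CD44high library 2 (-0.06) or CD44low libraries 1_2 (-0.09), 4_2 (-0.09) or 5_2 (-0.10), with 0.19 without CD44low library 1 as the highest value without a single library and 0.81 with CD44low libraries 1, 2 and 5 left out. Genes of other cells named for their levels, none of them called, also turned sign. With the replicate block, 1_2, 4_2 and 5_2 left out, and each library left out in turn, the log2 fold change was -0.17, -0.77 and -1.02 to 2.07 for S100a8, -0.46, -0.41 and -0.62 to 1.82 for S100a9, and -0.0082, -0.28 and -0.77 to 1.02 for Cxcl16. S100a8 was at -0.35 with libraries summed by number and -0.08 without both libraries 5, Cd79a at 0.15 with 1, 2 and 5 left out, 0.017 with libraries summed and -0.44 to 0.19 with each left out, and Cd8b1 at 0.0044 without 1_2, 4_2 and 5_2, -0.12 without both libraries 5, and up to 0.042 with each left out (without CD44high library 3). The cause was not tested. A replicate block on the label number gave 3942, 562 and 57 (interaction) genes, and ended the interaction calls of Evl (adjusted p 0.105), Rora (0.0776) and Ckb (0.0737). The labels do not say if equal numbers in the 2 gates mark the same animal. Deviations of same-numbered CD44high and CD44low libraries correlated at -0.0537 to 0.167. Those of differently numbered libraries correlated at -0.452 to 0.41, a range that holds the former, so these values do not settle the pairing. Counts limit the reading of genes such as Havcr2 and Npnt in CD44low Tregs.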
